A study of Homo sapiens with 6 samples.

Results

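The genes described here are those of the cytosolic ribosomal proteins and of the elongation factor EEF1A1, measured in HCT-15. These cells are a cell line from a human colon tumour, grown here untreated or with 5-aza-2'-deoxycytidine. The drug is a nucleoside that traps DNA methyltransferases once it has entered DNA, so that methylation is lost as cells divide. They were taken by symbol, after each probe set was named through the RefSeq transcript in its identifier. This gave 52 probe sets of 42 genes, out of 1259 probe sets and 927 named genes on the array. A probe set is a group of short probes designed against a transcript, some of which can bind other transcripts as well, and its value is a log2 level, so that a difference of 1 is a doubling. Of the 52, 35 belong to 30 large subunit genes, 16 to 11 small subunit genes and 1 to EEF1A1. The series compared 3 arrays of untreated cells with 3 arrays of treated cells, which share the cell line and differ in the drug alone, as far as the labels say. The title of untreated replicate 3 gives it as treated, against its source name, its treatment entry and its leading letter, and it was kept with the untreated arrays. All 6 titles carry the word control. The labels used here state neither the dose nor the length of exposure. No label says that the replicates were grown as separate cultures, so the p-values reflect the spread between these arrays, which may be technical, and 3 arrays per group limit the precision.

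Array medians were 5.81 to 5.92, and no more than 5 values were identical in any pair of arrays. Of the colon epithelium markers fixed for a check of the label, LGALS4 had a mean level of 9.54 in untreated and 9.03 in treated cells, MUC13 of 7.97 and 8.93, and MUC2 of 5.57 and 5.67. The 10 probe sets of leukocyte markers had mean levels of 3.09 to 5.86 and the 8 of stromal and endothelial markers of 2.50 to 5.58. In these total RNA samples, fewer cells of a kind and less RNA per cell cannot be told apart.

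Ribosomal proteins and ribosomal RNA form the small subunit, which reads the messenger RNA, and the large subunit, which joins amino acids. EEF1A1 brings aminoacyl-tRNA to the ribosome. The messengers of most of these proteins start with a C followed by a run of pyrimidines, the 5′ terminal oligopyrimidine tract, through which their translation is regulated together by the mTOR pathway. They are transcribed at high rates in growing cells, and many have processed pseudogenes whose sequence is close to the parent messenger, so probe sets of these genes may share signal with copies.

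As background, the stretch around the start of transcription is shown for RPL31, the gene with a rise, and for 5 genes with a fall. These are the genes with an available RefSeq promoter among the 6 with the largest falls. Each stretch runs from 100 bases before the start through the first 20 transcribed bases, in build GRCh38.p14. RPL28 lies at chr19:55385832-55385951 on the plus strand and RPL34 at chr4:108620476-108620595 on the plus strand. RPL32 lies at chr3:12841546-12841665 on the minus strand and EEF1A1 at chr6:73521013-73521132 on the minus strand. RPL13A lies at chr19:49487508-49487627 on the plus strand and RPL31 at chr2:101002189-101002308 on the plus strand. Capitals mark the longest unbroken run of C and T on the transcribed-sense strand that overlaps the interval from 5 bases before to 5 bases after the start.
RPL28: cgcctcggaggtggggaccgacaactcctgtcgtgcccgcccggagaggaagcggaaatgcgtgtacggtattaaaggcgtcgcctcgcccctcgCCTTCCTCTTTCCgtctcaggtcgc
RPL34: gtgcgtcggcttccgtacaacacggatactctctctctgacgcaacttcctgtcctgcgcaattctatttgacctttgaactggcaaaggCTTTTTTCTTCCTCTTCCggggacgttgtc
RPL32: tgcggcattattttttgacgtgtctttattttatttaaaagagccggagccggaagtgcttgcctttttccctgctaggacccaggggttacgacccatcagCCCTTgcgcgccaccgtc
EEF1A1: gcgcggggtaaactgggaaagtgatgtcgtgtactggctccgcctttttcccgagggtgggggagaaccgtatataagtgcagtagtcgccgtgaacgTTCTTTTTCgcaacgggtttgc
RPL13A: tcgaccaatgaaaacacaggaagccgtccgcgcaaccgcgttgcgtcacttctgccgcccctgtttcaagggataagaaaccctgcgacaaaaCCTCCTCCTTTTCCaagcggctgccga
RPL31: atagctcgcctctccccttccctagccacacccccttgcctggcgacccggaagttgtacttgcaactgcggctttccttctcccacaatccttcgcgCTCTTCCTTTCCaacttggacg

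The run marked in capitals was 13 bases long in RPL28, 18 in RPL34, 9 in EEF1A1, 14 in RPL13A and 12 in RPL31, and 5 in RPL32. It begins before the start in RPL34 and after it in RPL32. The length of the run is therefore not that of the tract in the messenger. RefSeq promoters of 300 bases, 250 before the start and 50 after it, were matched for 34 of the 42 genes. In 28 of the 34 (82.4%) the run was at least 6 bases long, against 22.8% of all 27305 promoters. Promoters of genes with a probe set that fell had such a run in 6 of 8, and the others in 22 of 26. The dinucleotide CG, the site of DNA methylation, occurred a median of 23 times in the member promoters (2 to 37) and 14 times in all promoters. It occurred 37 times in the promoter of RPL28, 31 in RPL13A, 27 in RPL31, 24 in EEF1A1, 18 in RPL34 and 13 in RPL32. The letters CCGGAAG, the core bound by ETS factors, were found on either strand in 14 of the 34 (41.2%) and in 10.7% of all promoters. TATAAA was found in 3 (8.82%, against 12% of all) and AAGATGGC, the core bound by YY1, in 4 (11.8%, against 3.03%). CCGGAAG was present in RPL34, RPL32, RPL13A and RPL31 and not in RPL28 and EEF1A1. It was found in 4 of the 8 promoters of genes with a fall and in 10 of the 26 others, a difference that was not tested. Methylation itself was not measured.

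The probe sets of a few large subunit genes and of EEF1A1 read lower in treated cells, while most ribosomal protein probe sets did not pass the test. RPL28 was 3.15-fold lower, RPL34 2.43-fold, RPL32 2.38-fold and EEF1A1 2.35-fold lower, and 1 of the probe sets of RPL31 was the only member called higher, by 0.781 ± 0.090 (SE) on the log2 scale. In limma's moderated test, with Benjamini-Hochberg adjustment over all 1259 probe sets, 12 of the 52 fell (23.1%) and 1 rose (1.92%) at an adjusted p under 0.05. Over the whole array 16.8% of probe sets fell and 18.0% rose. The 12 falls came from 11 genes, 10 of the large subunit and EEF1A1. Of the 16 small subunit probe sets 0 were called either way, with 1 of them at an unadjusted p under 0.05. Their mean levels were all 11.73 or more, whereas RPL28, RPL34, RPL32, EEF1A1 and RPL37 were read under 11. Of the 16 changes 15 were negative. In 8 of the 16 sets all 3 treated values lay below all 3 untreated values, against 23.4% of all probe sets. The falls were uneven by probe set name. Of 23 members with the letters psr in their identifier 10 fell (43.5%), and of 29 without them 2 fell (6.9%). Falls of more than 1.5-fold numbered 6 with these letters and 0 without. The shares over all probe sets with and without these letters were not counted, so the difference cannot be read as particular to the members. RPL28, RPL34, RPL32, EEF1A1 and RPL37 carry these letters and also have mean levels under 11, so name and level are mixed here. Whether the design of the probe sets took part in which genes fell was not tested. The median change was -0.12 over the members and -0.01 over all probe sets. Of the 52 changes 48 were negative, against 665 of all 1259, and the signs are not independent, since the probe sets share arrays. In 27 members (51.9%) all 3 treated values lay below all 3 untreated values, against 23.4% of all probe sets, and in 1 member (1.92%) they all lay above, against 22.7%.

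These counts depend on how the arrays are scaled. With array medians set equal, 24 members fell (46.2%, against 24.7% of all probe sets, of which 15.6% rose), including 4 of the small subunit. After quantile normalization 11 fell (21.2%, against 21.0% of all) and 32 changes were negative. The median was then -0.05 against -0.05 over all probe sets. Of the members 32.7%, against 29.9% of all, had every treated value below every untreated value. Quantile normalization gives every array the same set of values. Of the 59 probe sets with a mean level of at least 12, 39 were members. A shift that the bright members share is thus largely taken out by this step, here and wherever it is used below. Values after it cannot decide whether there was such a shift.

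The largest fall was that of RPL28, a large subunit protein found in animals and plants but not in baker's yeast. Its level was 10.17, 10.29 and 10.15 on the untreated arrays and 8.56, 8.53 and 8.55 on the treated arrays. The groups lay far apart relative to the spread within them (log2 change -1.66 ± 0.07 SE, adjusted p = 4.86e-08). RPL34 read 8.74, 8.86 and 9.03 untreated and 7.41, 7.96 and 7.43 treated. Its treated replicate 2 stood above the other treated arrays, still below every untreated array, and the change was -1.28 ± 0.14 (adjusted p = 3.78e-05). RPL32 read 6.952, 7.320 and 6.997 untreated and 5.921, 5.764 and 5.833 treated (-1.25 ± 0.10, adjusted p = 4.26e-06). The highest of its untreated values was replicate 2, and the groups did not overlap.

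EEF1A1, which carries aminoacyl-tRNA to the A site, read 8.0, 8.25 and 7.915 on untreated arrays and 6.94, 6.77 and 6.76 on treated arrays. Every treated value lay below every untreated value, and the change was -1.23 ± 0.10 (adjusted p = 3.67e-06). RPL37, a small zinc-binding protein of the large subunit, read 6.32, 6.63 and 6.45 untreated and 5.78, 5.56 and 5.58 treated, 1.78-fold lower (-0.83 ± 0.10, adjusted p = 6.02e-05). For EEF1A1 and RPL37, as for RPL32, untreated replicate 2 was the highest array, and the groups were separate. EEF1A1, RPL28, RPL32, RPL34 and RPL37 have 1 probe set each on this array, so no second probe set of the same gene bears on these falls. The mean levels of these sets were 7.44, 9.37, 6.465, 8.24 and 6.05, against a median of 12.79 over the members. Whether such dimmer sets follow the main transcript of their gene was not tested.

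**Figure D1:**
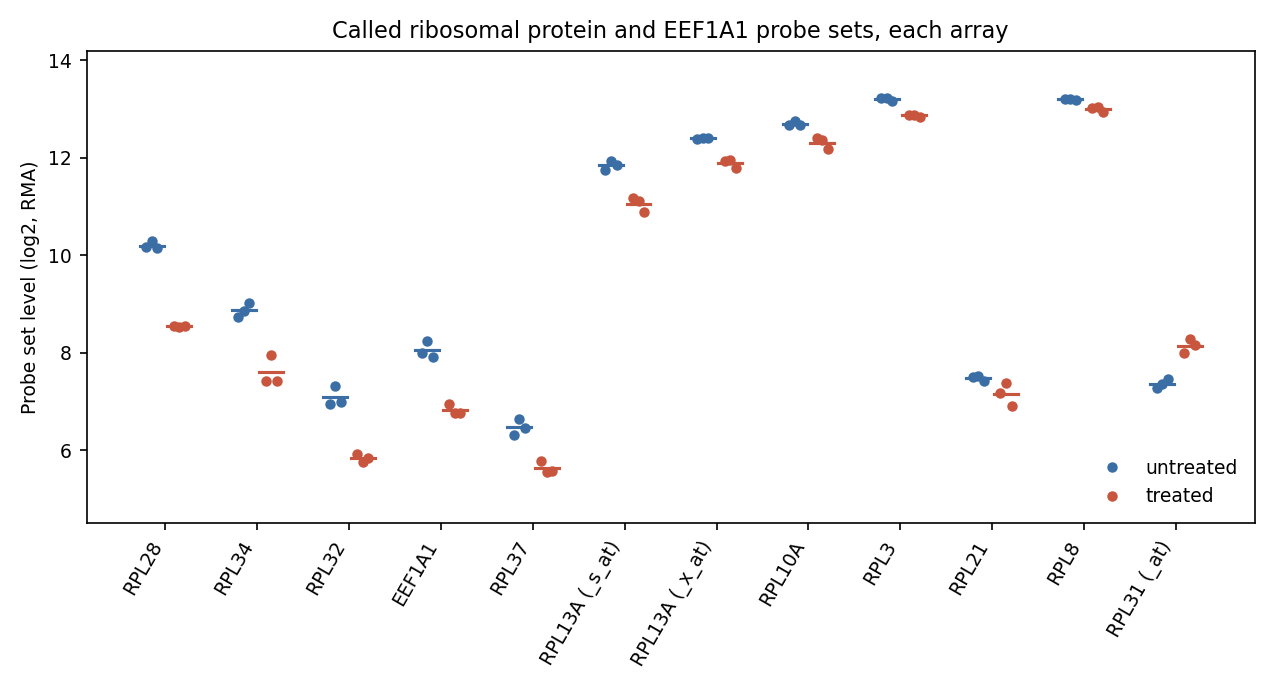
Level of 12 of the 13 called probe sets on each array (log2 values from RMA), untreated in blue and treated in red, with points for arrays and lines for group means of 3. RPL28, RPL34, RPL32, EEF1A1 and RPL37 show the widest gaps. The treated values of RPL21 run from 6.905 to 7.376, close below its lowest untreated value of 7.421. The _at probe set of RPL31 is higher in treated cells.

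Smaller falls were seen in probe sets with high levels. RPL13A, a large subunit protein that also takes part in translational silencing of inflammatory messengers, has 2 probe sets. Its _s_at set, whose ending marks binding to several transcripts, read 11.76, 11.94 and 11.85 untreated and 11.18, 11.12 and 10.88 treated (1.73-fold lower, adjusted p = 6.15e-05). Its _x_at set, whose ending marks possible cross-hybridisation, read 12.38, 12.41 and 12.42 untreated and 11.93, 11.95 and 11.79 treated (1.43-fold lower, adjusted p = 0.000223). Both sets fell with no overlap between groups, lowest on treated replicate 3.

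RPL10A, the protein of the L1 stalk through which spent tRNA leaves, read 12.68, 12.75 and 12.67 untreated and 12.41, 12.36 and 12.17 treated (-0.38 ± 0.08, adjusted p = 0.0034). Treated replicate 3 was again its lowest array, below the other treated arrays by more than the whole untreated range. RPL3, which lies next to the peptidyl transferase centre, read 13.23, 13.24 and 13.17 untreated and 12.89, 12.88 and 12.85 treated (-0.34 ± 0.07, adjusted p = 0.00219). Its treated arrays were within 0.04 of each other, with treated SD 0.02 and untreated SD 0.04.

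RPL21 and RPL8 passed the test narrowly. RPL21 read 7.49, 7.52 and 7.42 untreated and 7.16, 7.38 and 6.91 treated (-0.33 ± 0.11, adjusted p = 0.036). Without treated replicate 3 its change was -0.21 (adjusted p = 0.1), and over all 13 alternatives its adjusted p ranged from 0.00694 to 0.182. RPL8, a core protein at the peptidyl transferase centre, read 13.21, 13.20 and 13.19 untreated and 13.03, 13.05 and 12.95 treated (-0.19 ± 0.07, adjusted p = 0.0485), and leaving out any 1 array ended the call (0.0706 to 0.129). Quantile normalization (-0.08, adjusted p = 0.301) and a replicate block (0.0852) ended it too. The other 10 probe sets that fell did so in all 13 alternatives. Among them were those of RPL28, RPL34, RPL32, EEF1A1, RPL37, RPL10A and RPL3 and both of RPL13A.

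The 1 rise was in RPL31, a large subunit protein beside the exit of the nascent chain tunnel. Its _at set read 7.27, 7.37 and 7.45 untreated and 7.99, 8.28 and 8.16 treated (adjusted p = 5.5e-05), and it was called higher in all 13 alternatives. Its _x_at set read 10.24, 10.27 and 10.35 untreated and 10.36, 10.50 and 10.32 treated (0.11 ± 0.08, adjusted p = 0.323). The first set was separated by group, while in the second the lowest treated array lay below the highest untreated array. The difference between the changes of both sets, fitted on their per-array difference, was -0.67 for _x_at minus _at (95% interval -0.84 to -0.51, adjusted p = 0.000472 in limma's fit over all pairs), so the sets of this gene changed unequally. That difference passed the test in every alternative in which pairs were fitted, with the adjusted p at most 0.0186.

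Of the 42 genes, 9 have several probe sets, 19 in all, which form 11 pairs. The test of unequal change was run on all 143 pairs of probe sets of the same gene on the array, of which 21.0% passed, and 2 of the 11 member pairs passed (18.2%). Besides RPL31 these were the sets of RPL13A, where _x_at fell by less than _s_at (difference 0.28, 95% interval 0.11 to 0.44, adjusted p = 0.0358). This call was lost without untreated replicate 2 (0.102), untreated replicate 3 (0.0748), treated replicate 1 (0.0523), treated replicate 2 (0.0963) or treated replicate 3 (0.074), with a replicate block (0.0827) and in an ordinary test (0.11).

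The sets of RPL23, a large subunit protein that can bind MDM2, changed by -0.06 and -0.34, neither called, and differed by 0.28 (95% interval 0.06 to 0.51, adjusted p = 0.0817). The _s_at set of RPL23 read 11.16, 11.34 and 11.29 untreated and 10.94, 11.24 and 10.60 treated. Treated replicate 2 overlapped the untreated arrays, and without it the set passed the test (-0.50, adjusted p = 0.0081), while without treated replicate 3 its change was -0.18 (adjusted p = 0.234). Its _x_at set read 12.42, 12.45 and 12.43 untreated and 12.37, 12.51 and 12.23 treated, with treated replicate 2 the highest of all 6 arrays.

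For RPL35, RPS3, RPS6 and RPS27A the sets moved by nearly the same amount. The sets of RPL35 changed by -0.19 (_at) and -0.21 (_x_at), with a difference between -0.10 and 0.15 at 95% confidence. The _at set of RPL35 read 12.98, 13.11 and 13.14 untreated and 12.93, 13.01 and 12.73 treated, and its _x_at set 12.873, 12.996 and 13.032 untreated and 12.80, 12.90 and 12.57 treated. Both had their lowest value on treated replicate 3 and overlapped between groups.

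RPS3, which lines the entry of the messenger channel, changed by -0.13 (_at) and -0.14 (_x_at), with a difference between -0.13 and 0.11. The _at set of RPS3 read 12.99, 12.97 and 12.98 untreated and 12.81, 12.93 and 12.81 treated, and the _x_at set 13.09, 13.06 and 13.10 untreated and 12.90, 13.03 and 12.91 treated. In both, every treated array was below every untreated array, yet the changes did not pass the test (adjusted p = 0.186 and 0.157). RPS6, the substrate of the S6 kinases, changed by -0.09 (_s_at) and -0.05 (_x_at), with a difference between -0.09 and 0.16. Its _s_at set read 12.93, 12.96 and 12.92 untreated and 12.89, 12.90 and 12.75 treated, and its _x_at set 13.13, 13.10 and 13.10 untreated and 13.09, 13.09 and 13 treated. The groups of both sets were separate by a narrow margin, and neither change was called (adjusted p = 0.407 and 0.638).

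RPS27A, which is made as a fusion with ubiquitin, changed by -0.04 (_at) and 0.01 (_x_at). Its _at set read 12.71, 12.80 and 12.74 untreated and 12.73, 12.80 and 12.60 treated, its _x_at set 12.92, 12.97 and 13.01 untreated and 12.99, 13.04 and 12.89 treated, and the groups overlapped in both.

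In 9 of the 11 member pairs (81.8%) the probe set with the lower level had the larger absolute change, against 72 of all 143 pairs (50.3%). Some pairs share a probe set, and several of these differences were smaller than their errors.

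**Figure D2:**
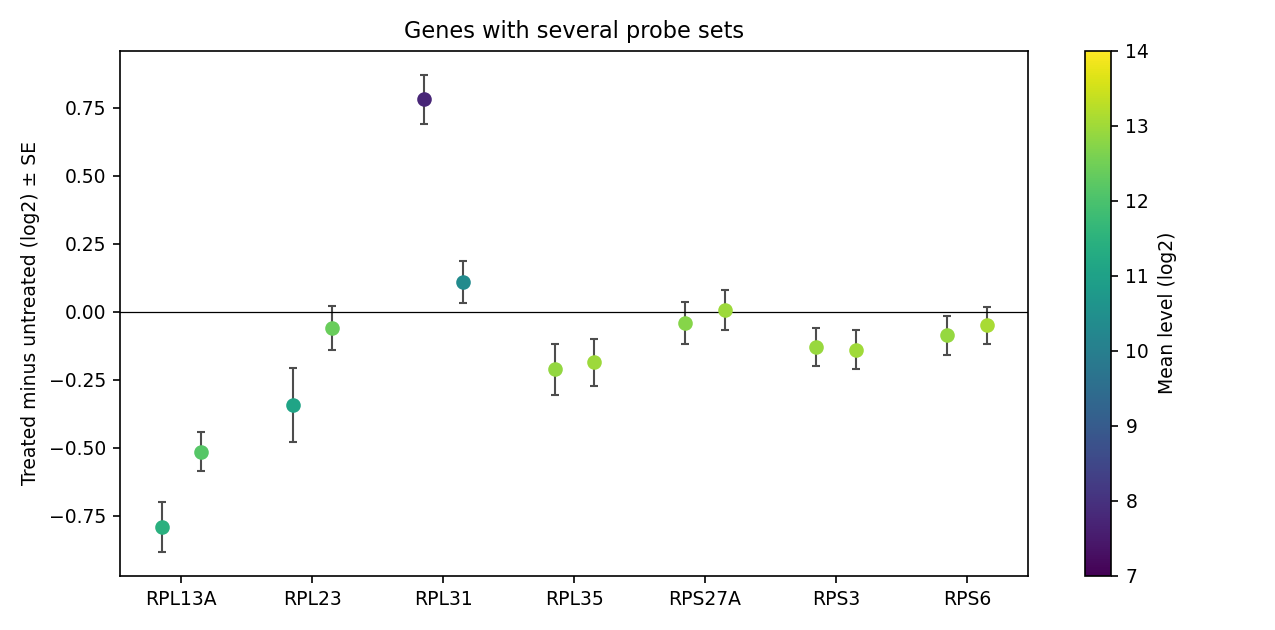
Change of each probe set (treated minus untreated, log2, with the SE of limma's fit, 3 arrays per group) for 7 of the 9 genes with several probe sets, coloured by mean level over the 6 arrays and ordered from the lowest level within a gene. The sets of RPL31 lie 0.67 apart and those of RPL13A 0.28 apart, and those of RPS3, RPS6 and RPL35 nearly coincide.

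The remaining large subunit probe sets were not called. RPL4 (-0.18 ± 0.07, adjusted p = 0.0853), RPL11 (-0.16 ± 0.07, 0.111), RPL18 (-0.15 ± 0.07, 0.111) and RPL7A (-0.15 ± 0.07, 0.124) had every treated value below every untreated value. RPL11, the protein best known for binding MDM2 when ribosome assembly is disturbed, read 13.16, 13.15 and 13.19 untreated and 13.03, 13.07 and 12.94 treated. RPL4, RPL7A, RPL11 and RPL18 passed the test with array centring (adjusted p = 0.0273, 0.0308, 0.0261 and 0.0273) and with an intensity trend in the prior (0.0175, 0.0236, 0.0181 and 0.0142), in which the expected spread depends on the level. After quantile normalization their changes were -0.06, -0.05, -0.07 and -0.05 (adjusted p = 0.446, 0.538, 0.368 and 0.555). RPL6, RPL9, RPL14, RPL17, RPL19, RPL24, RPL27, RPL30, RPL38, RPL39 and RPL41 lay between -0.12 and 0.00.

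RPL41, the smallest of the ribosomal proteins, had the highest mean level of the members, 13.62 in both groups (13.61, 13.62 and 13.64 untreated, 13.62, 13.67 and 13.57 treated). RPLP1, an acidic protein of the stalk that recruits elongation factors, read 13.19, 13.24 and 13.27 untreated and 13.20, 13.25 and 13.07 treated (-0.06 ± 0.07, adjusted p = 0.604). Neither was separated by group. RPL38, which in mice is needed for translation of certain Hox messengers, had the widest untreated spread of the members, 12.03, 12.40 and 12.56 (SD 0.27), against 12.35, 12.40 and 12.07 treated. RPL27A had the lowest mean level of the members, 5.26, with 5.32, 5.42 and 5.14 untreated and 5.23, 5.13 and 5.33 treated (-0.06 ± 0.09, adjusted p = 0.676), and its groups overlapped.

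Small subunit changes had a median of -0.06, and the highest was 0.01. RPS25 read 11.73, 11.88 and 11.83 untreated and 11.69, 11.77 and 11.51 treated (-0.156 ± 0.085, adjusted p = 0.194), with overlap. RPS10, RPS13, RPS18 and RPS24 changed by -0.08 to -0.03. The small and the large subunit sets were not tested against each other, and the number of small subunit sets that fell was 4 with array centring, 3 with an intensity trend and 0 after quantile normalization.

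The members differed in where on the scale they were read. Of 59 probe sets on the array with a mean level of at least 12, 39 were members, and of 16 with at least 13, 14 were members. Levels of different probe sets also depend on their probes and do not rank transcripts. Among the 9 members with a mean level under 11, 6 fell and 1 rose, with changes from -1.66 to 0.78, and of the 1148 other probe sets under 11, 191 fell (16.6%) and 219 rose (19.1%). Among the 43 with a level of 11 or more, 6 fell (14%) and 0 rose, with changes from -0.79 to 0.01 and a median of -0.10. Of the 59 other probe sets at that level, 8 fell (13.6%) and 7 rose (11.9%), so the share of falls among the brighter members was close to that of other probe sets. The division at 11 was set after the values were seen. The 14 members at 13 or more changed by a median of -0.07, and 2 of them fell. Across the 52 members Spearman's rho between level and absolute change was -0.45, and -0.23 across the 43 brighter ones, whereas across all 1259 probe sets it was 0.26. These are descriptions, since the points share arrays and several share a gene. Within-group SDs moved with level too, with a median of 0.141 for members under 11 and 0.048 for members at 13 or more. Whether a limit of the array at high signal took part in the small changes was not tested.

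**Figure D3:**
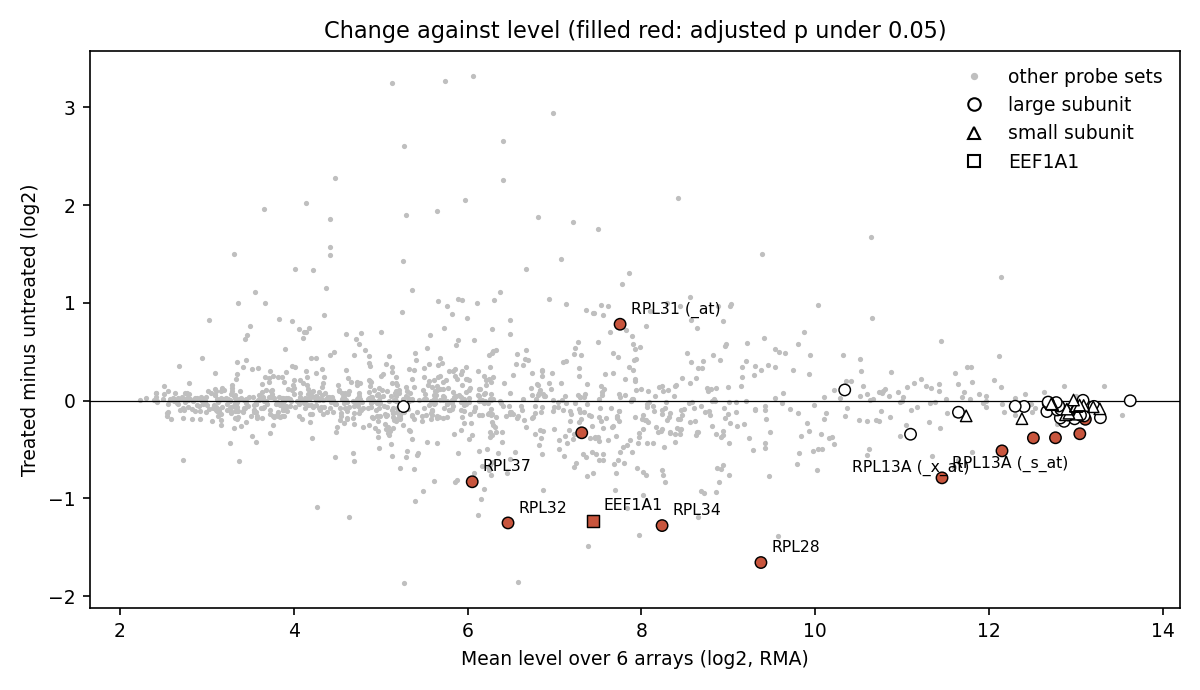
Change (treated minus untreated, log2) against mean level over the 6 arrays for all 1259 probe sets, with the large subunit as circles, the small subunit as triangles and EEF1A1 as a square. Members with an adjusted p under 0.05 are filled red. Of the 52 members, 39 lie at levels of 12 or more, most of them with changes near 0, and the called members under 11 spread from -1.66 to 0.78.

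A single array carried part of the shift in the members. Treated replicate 3 was the lowest of the treated arrays in 43 of the 52 members (82.7%), against 35.7% of all 1259 probe sets. Untreated replicate 1 was the lowest of the untreated arrays in 34 (65.4%), against 33.9%. The members' median level was 12.79, 12.90 and 12.88 on the untreated arrays and 12.78, 12.79 and 12.62 on the treated arrays. Split by level, every treated median lay below every untreated median. For members at 11 or more the medians were 12.93, 12.97 and 12.95 untreated and 12.81, 12.88 and 12.73 treated. For members under 11 they were 7.49, 7.52 and 7.45 untreated and 7.16, 7.38 and 6.90 treated. Without treated replicate 3 the members' median change was -0.07, against -0.02 over all probe sets, with 39 negative changes. Falls then numbered 10 (19.2%, against 16.6% of all). Without untreated replicate 1 the members' median change was -0.14, against -0.02 over all, with 50 negative changes and 10 falls (19.2%, against 15.3%). With the mistitled untreated replicate 3 left out, 11 members fell (21.2%, against 17.1% of all) and 1 rose, against 17.9% of all. The members' median was then -0.13.

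**Figure D4:**
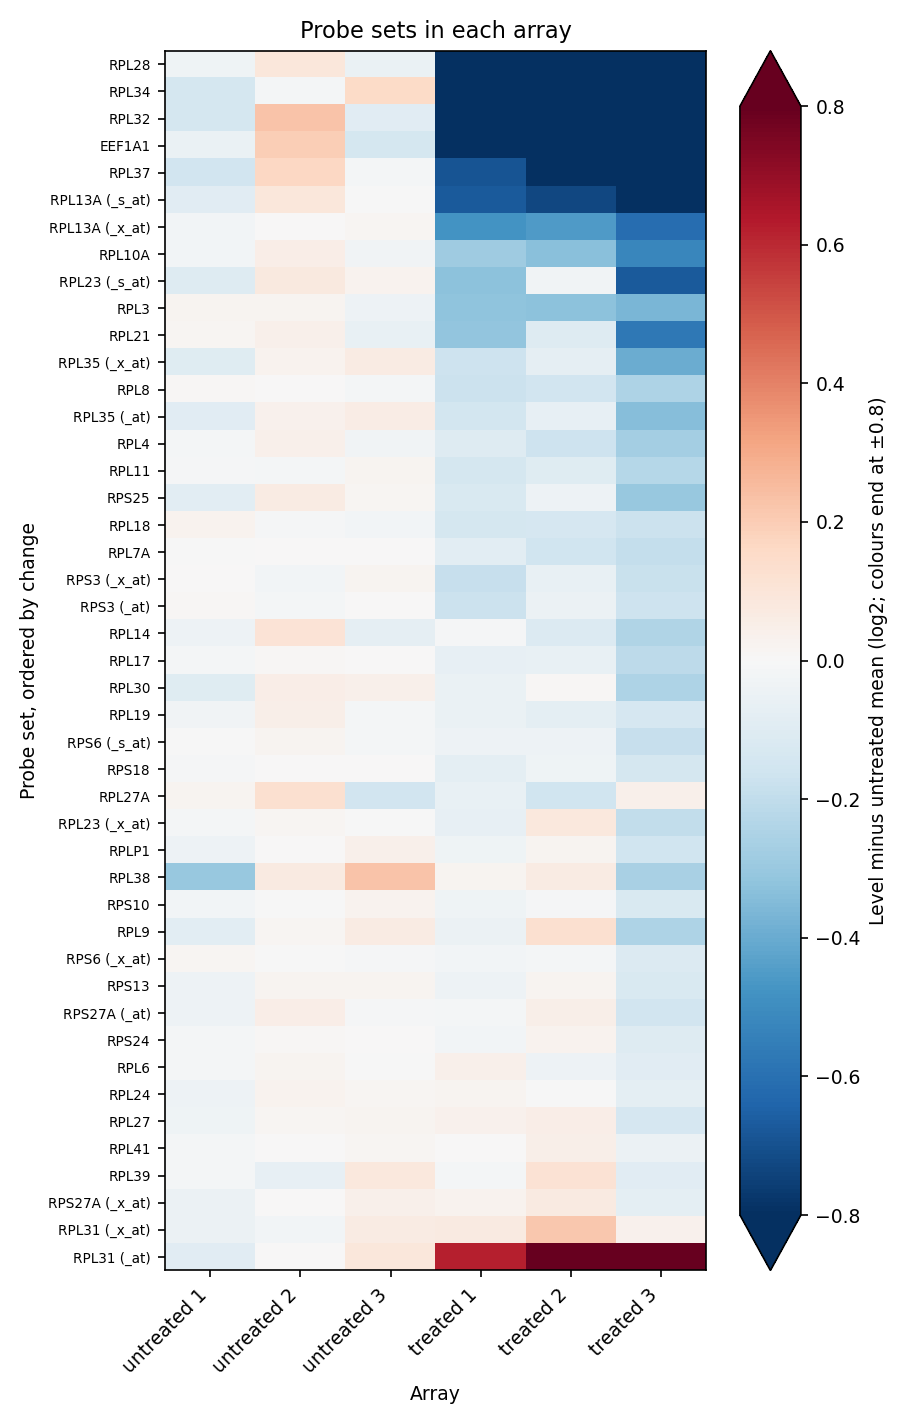
Level of 45 of the 52 probe sets on each array minus its untreated mean (log2), ordered from the largest fall to the rise, with blue for lower and red for higher. The top rows are blue on all 3 treated arrays, while in most of the others the treated replicate 3 column is the darkest of the treated arrays.

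Other genes of translation on the array, from a list of initiation and elongation factors and ribosome-associated proteins, gave 10 probe sets of 7 genes, of which 5 fell and 1 rose, with a median change of -0.21, against 16.8% and 18.0% of all probe sets. The falls numbered 4 after quantile normalization, 6 with array centring and 3 without untreated replicate 2, with 1 rise each time. EIF3F, a subunit of the initiation factor that holds the small subunit ready for the messenger, fell in both of its sets (-0.61 ± 0.07, adjusted p = 8.17e-05, and -0.52 ± 0.07, adjusted p = 0.000251). EIF3D (-0.25 ± 0.07, adjusted p = 0.0128) and 1 of the 2 sets of EIF3C (-0.31 ± 0.08, adjusted p = 0.0125) fell, as did RACK1, a scaffold protein on the small subunit (-0.24 ± 0.07, adjusted p = 0.0175). EIF4G2, an initiation factor for translation that does not depend on the cap-binding protein, rose from 11.57 to 11.91 (0.34 ± 0.08, adjusted p = 0.0058). EEF2, which moves the ribosome along after each peptide bond, was not called in either set (-0.12 and -0.04, adjusted p = 0.229 and 0.691). FAU, which encodes a small subunit protein fused to a ubiquitin-like domain, went from 12.73 to 12.69 (adjusted p = 0.701). EEF1A1 was called lower and EEF2 was not, but the mean level of the EEF1A1 set was 7.44 and those of the EEF2 sets 12.17 and 12.85. In the dimmer EEF2 set every treated value lay below every untreated value. The difference between the changes of EEF1A1 and EEF2 was not tested.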

How the data were processed

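Biotinylated cRNA was made from total RNA by an Affymetrix protocol, as the labels' protocols describe. A single deposited table gives log2 levels of 1259 probe sets on 6 arrays, and RMA is named as the method per the submitters' processing notes, with version, settings and platform not given in the sources used here. The log2 scale was taken from the range of the values, 2.13 to 13.67. Scanner files and detection calls were not used here. Identifiers were matched without versions to RefSeq genes (GRCh38.p14), which named 1043 probe sets, and 216 stayed unnamed. Endings of names (_s, _x) mark 26 of the 52 members as able to bind more than 1 transcript.

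Treated and untreated arrays were compared with limma 3.58.1 in R 4.3.3 (lmFit, eBayes, two-sided, Benjamini-Hochberg over 1259 probe sets, no filter, called at an adjusted p under 0.05). The per-array differences of 143 pairs of probe sets of the same gene were fitted likewise. The code was tested on simulated data. The members and lists were chosen with earlier results of these data known. Values are given per array for the 10 largest called changes, EEF1A1 and genes with several probe sets, and other members with values were named after these were seen. Alternatives were quantile normalization, array centring, a filter on dim probe sets (839 kept), an intensity trend, array weights, a replicate block, removal of single arrays, an ordinary test, other thresholds, 1 probe set a gene and unique probe sets. Some members are counted in the totals but not reported here by name or plotted with a label.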

Additional observations from a re-analysis of the deposited data

How the results depend on the processing

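Of the 13 called members, 11 kept their call and direction in all 13 alternative fits, RPL8 and RPL21 being the exceptions, and no called change reversed. The count of called members (13, of which 12 fell) became 25 (24 fell) with array centring and 22 (21 fell) with an intensity trend. The share of members that fell was 46.2% with array centring, against 24.7% of all probe sets. With an intensity trend it was 40.4%, against 17.8%. Of the 26 members without an ending of shared binding, 8 were called and 7 fell (26.9%, against 23.1% of all 52 members). With 1 probe set a gene no rise was left (0), since the _x_at set stood for RPL31. All probe sets that fell or rose numbered 211 and 227 as deposited, 311 and 197 with array centring and 265 and 220 after quantile normalization. Pairs of probe sets with unequal change, 30 of all and 2 of the members, numbered 19 after quantile normalization, 9 with the filter on dim probe sets, 14 (1 of the members) with the replicate block, 10 (1) in the ordinary test, 10 (1) at a threshold of 0.01, 4 of the members at 0.1, and 13 to 24 (1 to 2) with 1 array left out. The pairs were not fitted with an intensity trend, since a difference has no level of its own. With the replicate block 12 members were called instead of 13, and 394 probe sets instead of 438. Deviations of arrays from their group mean correlated at -0.274, 0.037 and -0.111 for the same number and at -0.328 to 0.422 for different numbers. Deviations from a mean of 3 arrays constrain each other, so these values cannot decide whether the numbers pair the arrays. Signal over background cannot be given, as no background values were used here.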

Other observations

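A list of housekeeping genes gave 14 probe sets of 12 genes, with a median change of 0.02. Of these 2 fell (14.3%, close to the 16.8% of all probe sets) and 0 rose, against 18.0% of all. GUSB, a lysosomal enzyme, changed by -0.31 (adjusted p = 0.0075 in limma's fit) and HNRNPC, an RNA-binding protein of the nucleus, by -0.61 (adjusted p = 0.000163).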
